A study of Mus musculus with 8 samples.

Results

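Genes of cholesterol and fatty acid synthesis, with their regulators and sterol carriers, were followed in glomeruli isolated from mouse kidneys. The list of 36 genes follows textbook pathways and its rule uses no measured values, but it was drawn up with earlier results of these data known. For each gene the probe set that names it alone and has the highest mean over the 8 arrays was used. This gave 32 of the 36 genes, among 22180 genes measured in all. They were 16 of 18 sterol enzymes, 7 of 8 fatty acid enzymes, 6 of 7 regulators and 3 of 3 sterol transport genes. Acat2, Nr1h2, Idi1 and Scd2 were not analysed here, and the last 2 are each named on 1 probe set together with other genes.

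Total RNA was labelled as cRNA and hybridised to Affymetrix arrays, 1 per sample, in 3 groups of mice aged 13 weeks. All groups had received doxycycline for 3 weeks from an age of 8 weeks. The control group (2 arrays) has no other allele or agent in its labels, and whether it was given vehicle is not stated. The other groups carry Tln1 Pod-rtTA TetO-Cre and then had 2 weeks of vehicle (Tln1 vehicle, 3 arrays) or of valproic acid, an inhibitor of histone deacetylases (Tln1 VPA, 3 arrays). By its name, this line uses a podocyte transactivator, Pod-rtTA, that switches on Cre under doxycycline to recombine Tln1, which encodes talin 1, the link between integrins and actin. Podocytes, the epithelial cells of the filter, are only a part of the cells in such an isolate. Whether each array is a separate animal is not stated, so p-values reflect the spread between these samples alone, part of which may be technical.

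Cholesterol is built from acetyl-CoA through mevalonate, farnesyl diphosphate, squalene and lanosterol, while fatty acids are built by acetyl-CoA carboxylase and fatty acid synthase and then lengthened and desaturated. The enzymes of both routes are transcribed under SREBP factors. Scap carries these factors to the Golgi for cleavage when sterols are low, and Insig proteins hold them back when sterols are high. LXR receptors (Nr1h3 is LXR alpha) answer to oxidised sterols, and their targets include Srebf1 and the sterol exporters Abca1 and Abcg1. In the kidney, proximal tubule cells and glomerular cells both run these pathways.

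Promoters are shown for 3 of these genes, chosen after their values were seen, because SREBP acts together with NF-Y and Sp1 at such promoters. Insig1 and Ebp are genes whose levels were lower in every Tln1 array than in the control of the same array set, and Hmgcs1 is a gene that did not follow that order. Each line gives the 250 bases before the RefSeq start in build GRCm38.p6, 5′ to 3′ on the gene's strand. Capitals mark the SREBP consensus TCACNCCAC and the NF-Y box CCAAT, read on either strand, so that ATTGG is the box on the other strand. The windows are chr5:28071162-28071411 (plus strand) for Insig1, chr13:119690101-119690350 (plus strand) for Hmgcs1 and chrX:8193513-8193762 (minus strand) for Ebp.
Insig1: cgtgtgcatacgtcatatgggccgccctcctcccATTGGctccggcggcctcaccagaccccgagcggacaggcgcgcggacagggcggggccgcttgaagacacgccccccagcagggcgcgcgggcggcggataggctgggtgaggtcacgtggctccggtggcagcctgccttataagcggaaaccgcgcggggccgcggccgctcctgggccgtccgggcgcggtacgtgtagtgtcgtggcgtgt
Hmgcs1: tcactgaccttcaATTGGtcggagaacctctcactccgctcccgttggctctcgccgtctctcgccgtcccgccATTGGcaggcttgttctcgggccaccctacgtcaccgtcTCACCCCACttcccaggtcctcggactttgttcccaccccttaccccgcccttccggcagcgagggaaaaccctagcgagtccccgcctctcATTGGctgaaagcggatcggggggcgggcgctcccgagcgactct
Ebp: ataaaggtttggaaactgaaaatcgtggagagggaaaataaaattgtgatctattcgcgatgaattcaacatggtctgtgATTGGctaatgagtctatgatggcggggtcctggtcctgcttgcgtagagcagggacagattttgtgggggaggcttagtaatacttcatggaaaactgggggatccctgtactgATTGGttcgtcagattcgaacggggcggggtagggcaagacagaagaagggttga

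In these windows Hmgcs1 has the SREBP consensus at -137 to -129 from the start, with NF-Y boxes beginning at -237, -176 and -45. Insig1 has 1 box at -216, and Ebp has boxes at -170 and -55. No shown match overlaps another. Over windows of 300 bases that also hold 50 bases after the start, RefSeq promoters were at hand for 25 of the 32 genes. A gene was counted where any of its windows held the letters on either strand. The NF-Y box stood in 19 of the 25, including 13 of 13 sterol enzymes, beside 41.6% of the 16990 measured genes that have a window. The Sp1 box GGGCGG stood in 20 of the 25 and in 12 of 13 sterol enzymes, beside 49.5% of measured genes. The SREBP consensus stood in 1 of the 25, Hmgcs1, beside 1.43% of measured genes. Over all 32851 promoters of that length, the shares were 37.4%, 35.7% and 1.24%. These are matches of letters and not measured binding.

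The arrays fell into 2 sets, by correlation, that cut across the groups. The first set held the first control array and arrays 1 and 2 of both Tln1 groups. The second set held control 2 and array 3 of both Tln1 groups. Any pair of arrays within the first set had exactly the same value at 4.81% to 6.29% of probe sets, and within the second set at 9.09% to 10.5%. Pairs across the sets shared at most 2 of 41345 values. The sets are therefore treated as values summarised separately, and the enzyme medians of each comparison are given within each set beside those over all arrays. Levels set across the sets, and the fit that takes group as its only term, carry that limit. Values with an array left out come from the same fit and carry it too.

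Levels of the lipid genes differed between the sets: 29 of 32 were higher in the first set than in the second (median difference 0.47), against 66.1% of all genes (median 0.14). Proximal tubule markers (10 of 10 measured) had means of 11.96 to 12.33 (first set) and 10.93 to 11.36 (second set). Podocyte markers (8 of 10 measured) had means of 7.02 to 7.78 and 8.42 to 9.09. Both tubule and podocyte RNA were measured in every isolate labelled as glomerulus, and fewer cells of a type cannot be told apart from less RNA per cell. Y-linked RNA (mean of Kdm5d, Uty and Eif2s3y) was at 3.57 in control 1, 4.85 to 6.996 in the other first-set arrays and 2.56 to 2.72 in the second set. Within the first set, any difference in sex that these genes mark therefore cannot be told apart from the difference between Tln1 and control. The first-set differences from control given below carry that limit. Tln1 itself stood at 8.97 and 8.64 in the controls, at 8.95, 8.95 and 8.60 with vehicle and at 8.76, 8.88 and 8.59 with valproic acid, where the position of its probe set relative to the recombined part is not known here, so that it checks no label.

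The first comparison asked how the glomeruli of Tln1 vehicle mice differed from control. Sterol enzymes were lower on balance: the median log2 change was -0.25 over all arrays, -0.38 within the first set and -0.31 within the second, beside 0.02, -0.01 and 0.00 for all genes. In the first set 15 of 16 sterol enzymes were below control 1, and in the second set 14 of 16 were below control 2. Fatty acid enzymes had a median of -0.32, with -0.26 and -0.67 within the sets. No gene of the 32 passed limma at an adjusted p below 0.05, nor did any of the 22180 genes (0%), and 322 genes and 2 of the 32 had an unadjusted p below 0.05. With the array set as a block, 0 of all genes (0%) were called too, 1620 had such a p, and the median residual SD went from 0.214 to 0.123.

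Counted by array, 22 of the 32 genes were lower in every Tln1 vehicle array than in the control of the same set, beside 16.3% of all genes. These were 13 of 16 sterol enzymes, 4 of 7 fatty acid enzymes, 5 of 6 regulators and 0 of 3 transport genes. In the other direction there were 0 of the 32, beside 14.2% of all genes. With the set as a block, 15 of the 32 had an unadjusted p below 0.05 and were lower, beside 4.3% of all genes, and 0 were higher, beside 3.01%. Over all arrays without regard to set, 4 of the 32 lay below both controls in every Tln1 vehicle array (Scd1, Fdps, Sc5d and Hsd17b7), beside 3.59% of all genes, and 0 lay above, beside 4.78%.

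Among the sterol enzymes, Fdps, which makes farnesyl diphosphate, stood at 7.26 and 6.49 in control 1 and 2, at 6.28, 6.10 and 6.15 in the vehicle arrays and at 6.37, 6.31 and 6.28 in the valproic acid arrays. All 6 Tln1 arrays were below both controls. Its change for Tln1 vehicle was -0.70 (SE 0.21, limma adjusted p = 1.00), with -1.08 (first set) and -0.33 (second set). Without control 1 it was -0.31 and without control 2 it was -1.09. Dhcr7, the final reductase of cholesterol synthesis, stood at 7.81 and 7.28 in the controls, at 7.38, 7.29 and 6.99 with vehicle and at 7.01, 7.10 and 7.15 with valproic acid. The Tln1 VPA arrays were all below both controls, while Tln1 vehicle overlapped control 2. Its change for Tln1 vehicle was -0.32 (SE 0.19, limma adjusted p = 1.00) and -0.47 and -0.29 within the sets, and without control 1 it was -0.06.

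Sc5d, a sterol desaturase, stood at 8.04 and 7.80 in the controls, at 7.64, 7.78 and 7.66 with vehicle and at 7.75, 7.49 and 7.55 with valproic acid. Every Tln1 array was below both controls, by as little as the gap from 7.80 to 7.78. For Tln1 vehicle the change was -0.23 (SE 0.14, limma adjusted p = 1.00), or -0.33 and -0.14 within the sets, and -0.11 without control 1. Msmo1, which with Nsdhl and Hsd17b7 removes methyl groups from the sterol ring, stood at 6.77 and 6.26 in the controls, at 6.38, 6.38 and 5.98 with vehicle and at 6.21, 6.08 and 6.05 with valproic acid. The change was -0.27 (SE 0.20, limma adjusted p = 1.00), or -0.39 and -0.28 within the sets, and -0.01 without control 1. Its Tln1 vehicle arrays overlapped the controls unless the sets were kept apart.

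Ebp, the sterol isomerase of the late pathway, stood at 9.17 in control 1 against 8.69 and 8.83 in Tln1 vehicle 1 and 2 and 8.45 and 8.38 in Tln1 VPA 1 and 2. In the second set it stood at 8.42 in control 2, then 7.86 (Tln1 vehicle 3) and 7.82 (Tln1 VPA 3). The order control, Tln1 vehicle, Tln1 VPA was the same in both sets, yet control 2 lay below the first-set Tln1 vehicle arrays. The change for Tln1 vehicle was -0.34 (SE 0.36) over all arrays and -0.46 (SE 0.10, limma adjusted p = 0.428) with the set as a block. Without control 1, which leaves the second-set array as the only control, it was 0.039. Ebp, Insig1, Srebf1, Nsdhl and Tm7sf2 were picked for fuller values after their values with the set as a block had been seen.

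Nsdhl and Tm7sf2, a sterol reductase, were also below the control of the same set. Nsdhl stood at 10.11 in control 1 and 9.39, 9.59, 9.36 and 9.30 in the other first-set arrays (Tln1 vehicle 1 and 2, Tln1 VPA 1 and 2), and at 9.17, 8.28 and 8.79 in control 2, Tln1 vehicle 3 and Tln1 VPA 3. Tm7sf2 stood at 6.97 in control 1 against 6.65, 6.57, 6.57 and 6.55, and at 6.15 in control 2 against 5.65 and 5.59. With the set as a block their changes for Tln1 vehicle were -0.70 (SE 0.16) and -0.42 (SE 0.08), with limma adjusted p = 0.441 and 0.374. For both genes the second-set control lay below every first-set array.

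Sqle, the squalene epoxidase, and Cyp51, the lanosterol demethylase, had some of the widest ranges. Sqle stood at 8.03, 7.47, 7.45, 7.32 and 7.53 in the first set (the control, then the 2 vehicle and the 2 valproic acid arrays) and at 6.69, 6.14 and 6.85 in the second (control 2, Tln1 vehicle 3, Tln1 VPA 3). Cyp51 stood at 9.03, 8.13, 8.68, 7.34 and 7.43 in the first set and at 7.02, 6.13 and 7.20 in the second. For both, Tln1 vehicle was below control in each set, with differences of -0.57 and -0.55 for Sqle and of -0.63 and -0.90 for Cyp51, while Tln1 VPA was below control in the first set only.

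Hmgcs1, the synthase at the entry to the mevalonate route, was the one sterol enzyme with a higher mean in Tln1 vehicle than in control. It stood at 10.50 in control 1 against 10.80 and 11.004 in Tln1 vehicle 1 and 2, and at 9.67 in control 2 against 8.98 in Tln1 vehicle 3, so its differences within the sets, 0.40 and -0.69, had opposite signs. The other sterol enzymes had changes between -0.21 and -0.01 over all arrays. They were the kinases Mvk and Pmvk, the decarboxylase Mvd, squalene synthase (Fdft1), lanosterol synthase (Lss) and Hsd17b7. Within the sets their differences ran from -0.57 (Mvd, second set) to 0.07 (Lss, second set).

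**Figure D1:**
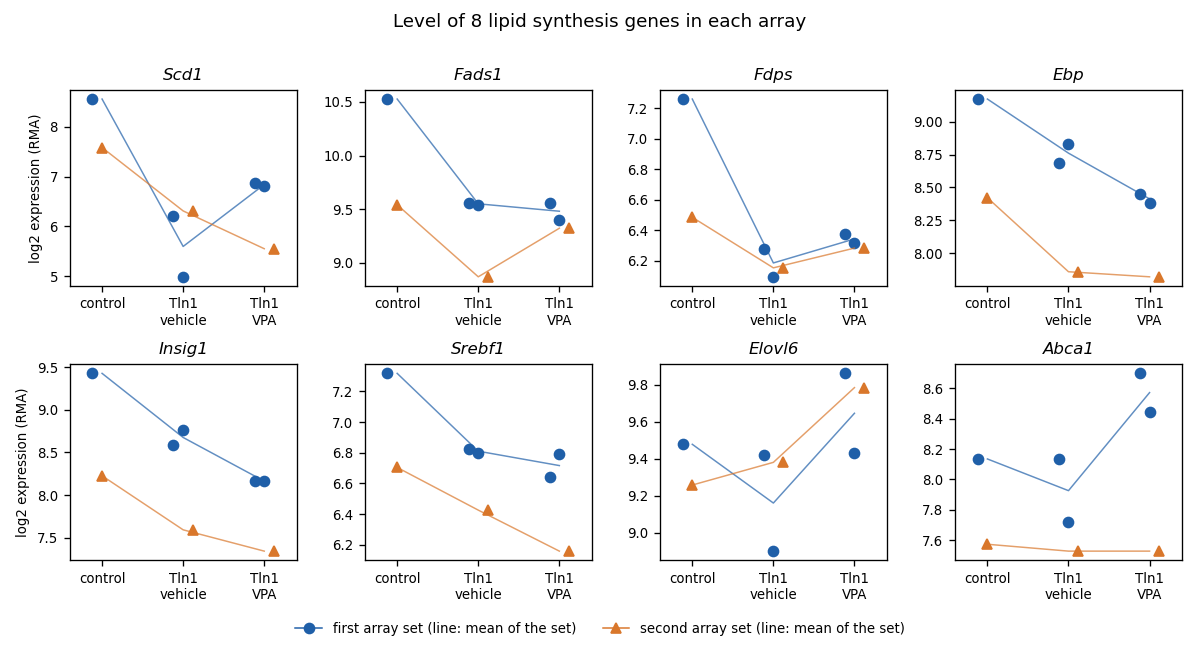
Log2 expression (y axis) of 8 lipid synthesis genes in control, Tln1 vehicle and Tln1 VPA arrays (x axis). Each point is 1 array, blue circles are the first array set and orange triangles the second, and lines join the mean of each set. Scd1 and Fdps lie lower in all 6 Tln1 arrays than in both controls, while Insig1, Ebp and Srebf1 are in the order control, Tln1 vehicle, Tln1 VPA by set mean but the second set lies lower throughout.

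Among the fatty acid enzymes, Scd1, the stearoyl-CoA desaturase that makes monounsaturated fatty acids, had the largest difference of the 32 genes. It stood at 8.55 and 7.58 in the controls, at 6.21, 4.99 and 6.31 with vehicle and at 6.87, 6.81 and 5.55 with valproic acid. All 6 Tln1 arrays were below both controls. The change for Tln1 vehicle was -2.23 (SE 0.55, limma adjusted p = 1.00), a level 4.70-fold lower, with -2.96 (first set) and -1.27 (second set). It was the second lowest change of all 22180 genes, and it ran from -2.72 without control 2 to -1.75 without control 1.

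Fads1, a desaturase of polyunsaturated fatty acids, stood at 10.53 and 9.54 in the controls, at 9.56, 9.54 and 8.87 with vehicle and at 9.56, 9.40 and 9.32 with valproic acid. Control 1 was the highest array, and the first-set Tln1 arrays were level with control 2. Its change for Tln1 vehicle was -0.71 (SE 0.32, limma adjusted p = 1.00), or -0.98 and -0.67 within the sets, and it was -0.22 without control 1. Fads2, its partner desaturase, stood at 10.79, 10.41, 10.64, 10.30 and 10.33 in the first set (the control, then the 2 vehicle and the 2 valproic acid arrays) and at 9.95, 8.59 and 9.23 in the second. Its difference was -0.26 (first set) and -1.36 (second set).

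Fasn, the fatty acid synthase, stood at 7.65 and 7.63 in the controls, at 7.65, 7.68 and 6.65 with vehicle and at 7.32, 7.47 and 6.89 with valproic acid. Tln1 vehicle 3 was the lowest, and its difference from control was 0.01 (first set) and -0.98 (second set). Acly, which supplies cytosolic acetyl-CoA, stood at 9.25 and 8.85 in the controls, at 9.17, 9.11 and 8.50 with vehicle and at 8.94, 8.88 and 8.45 with valproic acid. Both sets had control highest and Tln1 VPA lowest. Acaca, an acetyl-CoA carboxylase, differed by 0.06 and -0.31 within the sets, and Elovl6, a fatty acid elongase, by -0.32 and 0.12.

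Of the regulators, Insig1, the sterol sensor partner of Scap and itself an SREBP target, stood at 9.43 in control 1 against 8.58 and 8.77 in Tln1 vehicle 1 and 2 and 8.16 and 8.17 in Tln1 VPA 1 and 2. In the second set it stood at 8.23 in control 2, then 7.59 (Tln1 vehicle 3) and 7.35 (Tln1 VPA 3). Each set was ordered control, Tln1 vehicle, Tln1 VPA with no overlap. The change for Tln1 vehicle was -0.51 (SE 0.47, limma adjusted p = 1.00) over all arrays, -0.75 and -0.63 within the sets, and -0.68 (SE 0.11, limma adjusted p = 0.352) with the set as a block. Without control 1, which leaves the second-set array as the only control, it was 0.088.

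Srebf1, the SREBP gene tied to fatty acid synthesis, stood at 7.32 and 6.70 in the controls, at 6.82, 6.80 and 6.43 with vehicle and at 6.64, 6.79 and 6.16 with valproic acid. Its differences were -0.51 and -0.28 within the sets and -0.41 (SE 0.09, limma adjusted p = 0.428) with the set as a block. Over all arrays its change was -0.33, and it was -0.022 without control 1. Srebf2, the SREBP gene tied to sterol synthesis, stood at 9.08 and 8.36 in the controls, at 8.78, 8.79 and 7.86 with vehicle and at 8.51, 8.78 and 7.99 with valproic acid. Within each set both SREBP genes were below control in every Tln1 array. Scap and Nr1h3 differed by -0.09 and -0.18 and by -0.16 and -0.31 within the sets, and Insig2 by 0.06 and 0.01. The transport genes, the sterol carrier Stard4 and the exporters Abca1 and Abcg1, had changes of -0.01, -0.06 and -0.19 over all arrays. Within the sets Stard4 differed by 0.001 and -0.20, Abca1 by -0.21 and -0.05 and Abcg1 by -0.19 and 0.0005.

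**Figure D2:**
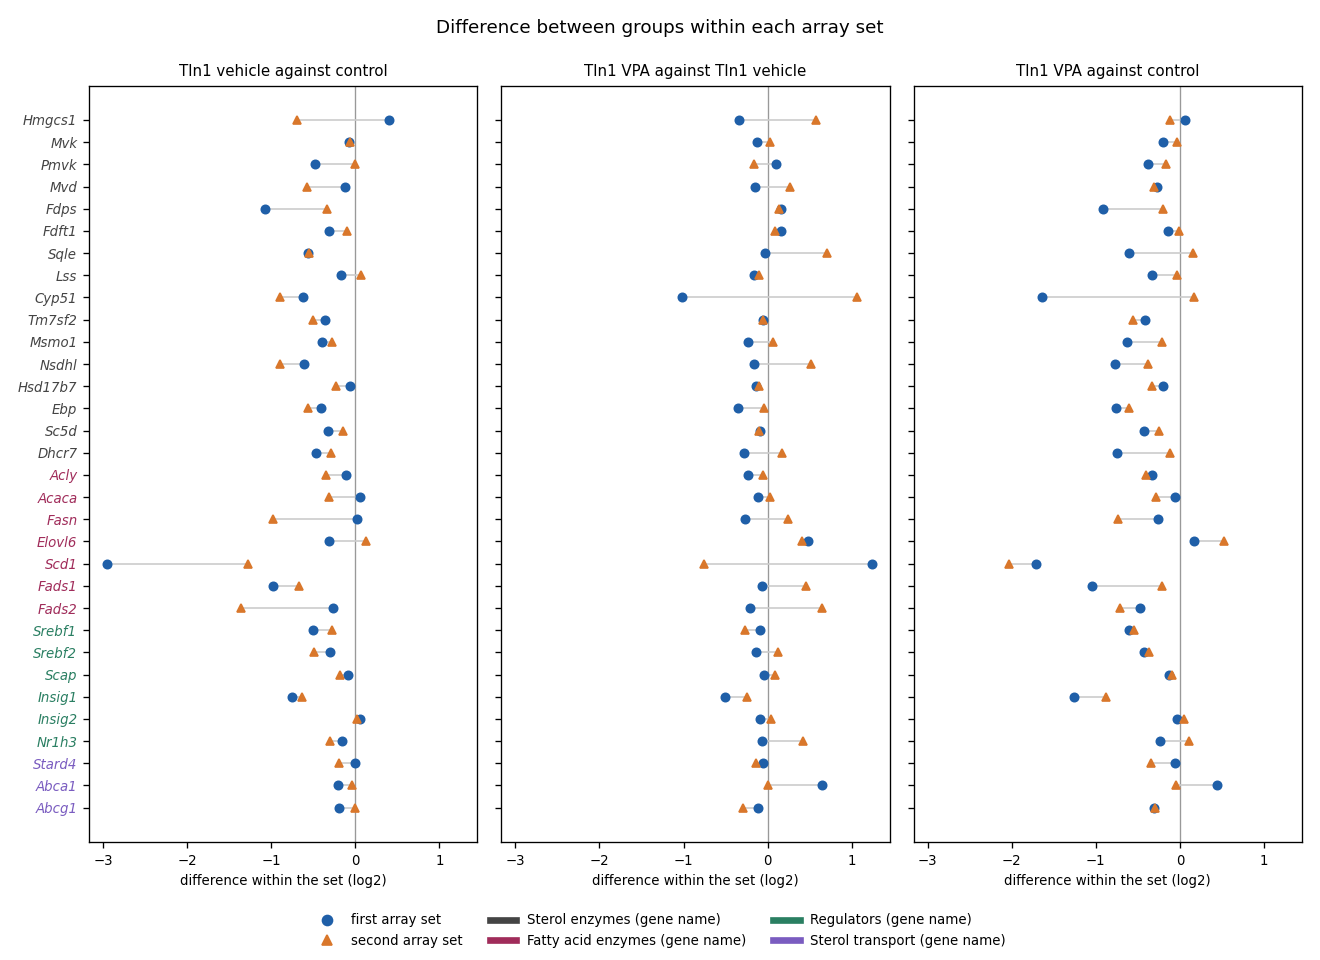
Difference in log2 expression within each array set (x axis) for each of the 32 genes (y axis), in 3 panels, 1 per comparison. Blue circles are the first set (means of Tln1 arrays against control 1, or Tln1 VPA against Tln1 vehicle), orange triangles the second set with 1 array per group. In both panels against control most genes lie left of 0 in both sets. Scd1 is farthest left except in the second set for Tln1 vehicle, where Fads2 is (-1.36 beside -1.27). In the middle panel 26 of the 32 genes lie left of 0 in the first set, beside 10601 of all 22180 genes. In the second set 12 of the 32 do, beside 9720 of all genes.

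The medians for Tln1 vehicle against control changed with single arrays left out, in fits with no term for the array set. That of the sterol enzymes was 0.014 when control 1 was left out, -0.54 for control 2 and -0.08 for Tln1 vehicle 3. That of the fatty acid enzymes was -0.09 when control 1 was left out and 0.022 for Tln1 vehicle 3. These values also carry the difference between the sets, as without control 1 the only control is from the second set. Within the second set alone the medians were -0.31 (sterol) and -0.67 (fatty acid). Marker levels moved with this comparison too. Of the 10 proximal tubule markers, 7 were lower than control by set mean in both sets (median -0.03 and -0.56 by set). Kap, an androgen-driven tubule gene, stood at 9.63 and 7.87 in control against 12.59, 12.91 and 8.90 in Tln1 vehicle. The 3 Y-linked genes had a median difference of 2.94 (first set) and 0.07 (second set). With the mean of the proximal tubule markers as a covariate the medians were -0.31 (sterol) and -0.43 (fatty acid). With the mean of the Y-linked genes as a covariate they were -0.52 and -0.77. The tubule mean separated the array sets, so that fit cannot tell tubule content apart from the set. The Y-linked mean was high only in the first-set Tln1 arrays. Its fit therefore cannot tell a difference in sex apart from set and group. With the replicate number as a block the enzyme medians were closer to 0, at -0.089 and -0.064. That fit blocked the controls by number as well. Control 2 of the second set thus shared a block with Tln1 vehicle 2 and Tln1 VPA 2 of the first set, so the fit does not keep the sets apart. Mesangial markers were higher for 5 of 5 genes over all arrays (median 0.74, or 0.80 and 1.07 within the sets), and markers of glomerular endothelium for 6 of 7 (median 0.44, but -0.10 and 1.23 within the sets). Podocyte markers had medians of 0.48 and -0.29 within the sets. The part of these cells in the enzymes' values was not tested. Fat cell markers (6 of 7 measured) averaged 4.77 in control 1 against 4.30 and 4.59 in Tln1 vehicle 2 and 1, and 4.17 against 4.38 in the second set. Adipoq, which defines fat cells, was between 2.73 and 3.15 in all arrays, among the low values of these arrays, whose median gene mean was 4.92. Fabp4 of the same list was higher, at 8.265 and 7.51 in the controls and at 7.78, 6.48 and 8.06 in Tln1 vehicle. In Tln1 VPA it was at 8.25, 7.75 and 8.54. The other fat cell markers measured were below 4.92 in every array.

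**Figure D3:**
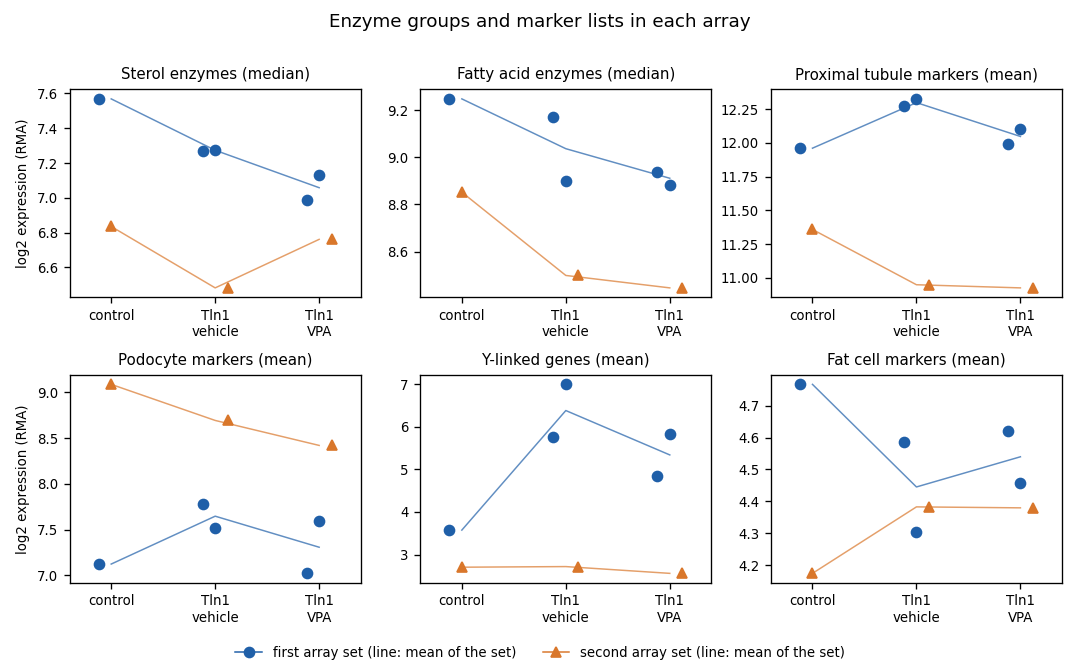
Log2 expression (y axis) of the sterol enzymes and fatty acid enzymes (median of each group of genes) and of 4 marker lists (mean of each list) in control, Tln1 vehicle and Tln1 VPA arrays (x axis). Each point is 1 array, blue circles are the first array set, orange triangles the second, and lines join set means. The enzyme medians are highest in the control of each set, the Y-linked mean is high only in the first-set Tln1 arrays (4.85 to 6.996), and proximal tubule and podocyte lists separate the sets.

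The second comparison asked what valproic acid changed in Tln1 mice. It uses the same Tln1 vehicle arrays as the first. Sterol enzymes had a median change of -0.06 (-0.15 and 0.08 by set) and fatty acid enzymes of 0.07 (-0.11 and 0.25), beside 0.00 for all genes. Both medians changed sign with the set, and also with single arrays left out (-0.24 to 0.04 and -0.18 to 0.22). Limma called no gene of the 32 and 0 of all genes (0%) at an adjusted p below 0.05, also with the set as a block (0%). An unadjusted p below 0.05 was found for 280 genes, 1 of them in the list.

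Within both sets without overlap, 6 of the 32 were lower in Tln1 VPA, beside 6.7% of all genes, and 3 were higher, beside 8.31%. The lower genes were Lss, Hsd17b7, Ebp, Acly, Srebf1 and Insig1, and the higher ones Fdps, Fdft1 and Elovl6. With the set as a block, 2 had an unadjusted p below 0.05 and were lower (Ebp and Insig1), beside 2.11% of all genes, and 2 were higher (Elovl6 and Abca1), beside 3.32%. Over all arrays, 1 was below every Tln1 vehicle array (Hsd17b7), beside 1.57%, and 2 above (Fdps and Elovl6), beside 1.98%.

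Elovl6 had the smallest p of the 32 here. It stood at 9.42, 8.90 and 9.38 in Tln1 vehicle and 9.86, 9.43 and 9.78 in Tln1 VPA, with control at 9.48 and 9.26. All Tln1 VPA arrays were above all Tln1 vehicle arrays, by as little as the gap from 9.42 to 9.43. The change was 0.46 (SE 0.19, limma adjusted p = 1.00), with 0.48 and 0.40 within the sets and 0.29 without Tln1 vehicle 2. It was the only fatty acid enzyme above Tln1 vehicle in every array of its set.

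Abca1, which exports cholesterol to apolipoproteins, stood at 8.13, 7.72 and 7.53 in Tln1 vehicle and 8.70, 8.44 and 7.53 in Tln1 VPA, with control at 8.13 and 7.57. It was higher with valproic acid in the first set only, by 0.65, while the second-set values were identical. Its change over all arrays was 0.43 (SE 0.32, limma unadjusted p = 0.223). Scd1 went opposite ways: Tln1 VPA was 1.24 above Tln1 vehicle in the first set and lower, at -0.76, in the second. The change over all arrays was 0.58 (SE 0.49, limma adjusted p = 1.00), and it was 0.15 without Tln1 vehicle 2, the array with the lowest value. The 3 Tln1 VPA arrays stayed below both controls.

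Hsd17b7 stood at 6.46, 6.50 and 6.43 in Tln1 vehicle and at 6.27, 6.41 and 6.33 in Tln1 VPA, with control at 6.54 and 6.66. Its groups were in order with no overlap, at a change of -0.13 (SE 0.10, limma adjusted p = 1.00). Fdft1 was at 7.97, 7.88 and 7.81 against 8.10, 8.08 and 7.91, with control at 8.24 and 7.91, at a change of 0.14 (SE 0.13, limma adjusted p = 1.00). Insig1 differed by -0.51 and -0.25 within the sets, at a change of -0.42 (SE 0.42, limma adjusted p = 1.00) over all arrays and -0.42 (SE 0.10, limma adjusted p = 0.789) with the set as a block. Cyp51 differed by -1.01 in the first set and by 1.07 in the second.

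Macrophage markers moved with this comparison. All 7 measured were higher in Tln1 VPA by set mean in both sets (median 0.42 and 0.63), and C1qb stood at 5.24, 5.09 and 6.59 in Tln1 vehicle and 6.23, 5.61 and 7.97 in Tln1 VPA. Macrophages carry Abca1 as well. Podocyte markers were lower for 7 of 8 in both sets (median -0.34 and -0.25), and those of glomerular endothelium for 6 of 7 (median -0.28 and -0.65). Mesangial markers were lower for 3 of 5 in both sets (median -0.26 and -0.66). The 3 Y-linked genes were also lower by set mean in both sets (median -1.11 and -0.16). Their mean was 5.77, 6.996 and 2.72 in Tln1 vehicle and 4.85, 5.83 and 2.56 in Tln1 VPA. No marker passed limma's test. The part of these cell types, or of a difference in sex, in the lipid genes' values was not tested.

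The third comparison set Tln1 VPA against control, and it shares both control arrays with the first and the Tln1 VPA arrays with the second. Values for the groups are therefore placed side by side without a measure of their likeness. Sterol enzymes had a median change of -0.29 (-0.42 and -0.18 by set) and fatty acid enzymes of -0.41 (-0.34 and -0.41), beside 0.02 for all genes. Hmgcs1 was again the one sterol enzyme with a higher mean than control, and Elovl6 the one such fatty acid enzyme. Limma called 0 of the 32 and 0 of all genes (0%), also with the set as a block (0%), while 414 genes and 5 of the 32 had an unadjusted p below 0.05.

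By array, 24 of the 32 were lower in every Tln1 VPA array than in the control of the same set, beside 16.1% of all genes. These were 13 of 16 sterol enzymes, 6 of 7 fatty acid enzymes, 4 of 6 regulators and 1 of 3 transport genes. In the other direction there were 0, beside 15.4%. With the set as a block, 17 of the 32 had an unadjusted p below 0.05 and were lower, beside 4.06% of all genes, and 0 were higher, beside 4.06%. Over all arrays, 9 lay below both controls (Fdps, Msmo1, Hsd17b7, Sc5d, Dhcr7, Acaca, Fasn, Scd1 and Insig1), beside 3.98%, and 0 lay above, beside 5.57%.

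Scd1 was again the farthest from control, with a change of -1.66 (SE 0.55, limma adjusted p = 1.00), a level 3.16-fold lower, and -1.72 and -2.03 within the sets. Its change ranked 7 from the lowest among all genes. Fdps differed by -0.92 (first set) and -0.20 (second set), at -0.55 (SE 0.21, limma adjusted p = 1.00) over all arrays. Of the late sterol enzymes, Dhcr7 was at -0.45 (SE 0.19), Msmo1 at -0.40 (SE 0.20), Sc5d at -0.33 (SE 0.14) and Hsd17b7 at -0.27 (SE 0.11), with limma adjusted p = 1.00 for each. Without control 1 Fdps was at -0.16, Dhcr7 at -0.19, Msmo1 at -0.14 and Sc5d at -0.20, and Hsd17b7 was at -0.32.

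Insig1 had the smallest p of the 32 genes with the set as a block. It differed from control by -1.26 (first set) and -0.88 (second set), at -1.11 (SE 0.11, limma adjusted p = 0.0971) with the block, the 3rd smallest p of all genes, and at -0.94 (SE 0.47, limma adjusted p = 1.00) without it. The adjusted p is the lowest that any gene had in that fit, and it did not pass. Ebp was at -0.71 (SE 0.10, limma adjusted p = 0.208), Srebf1 at -0.56 (SE 0.09, limma adjusted p = 0.236) and Tm7sf2 at -0.48 (SE 0.08, limma adjusted p = 0.236) with the block. Leaving out control 1 from the fit without the block took Insig1 to -0.34, Ebp to -0.21 and Srebf1 to -0.17. Nr1h3 and Insig2 had differences of opposite sign in the sets, at -0.23 and 0.11 and at -0.04 and 0.05.

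**Figure D4:**
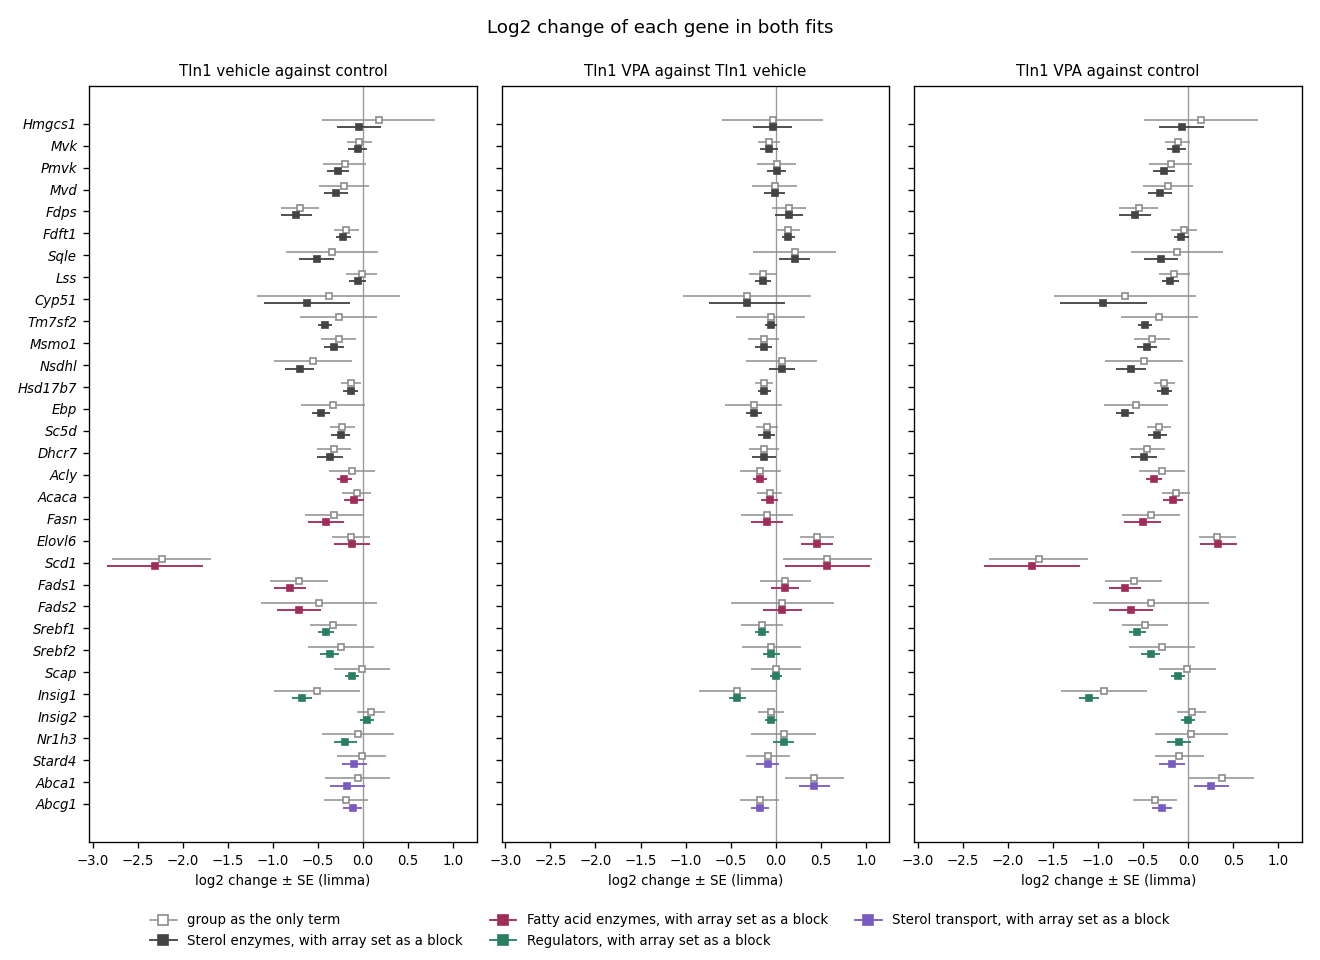
Log2 change ± SE from limma (x axis) for each of the 32 genes (y axis), in 3 panels, 1 per comparison. Open grey squares are the fit with group as the only term and filled squares, coloured by the genes' role, the fit with the array set as a block. The error bars of most genes are shorter with the block, as for Insig1 against control in Tln1 VPA (SE 0.47 without and 0.11 with it), and none of the changes passed over all genes.

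In this comparison the sterol median was -0.026 without control 1 and -0.60 without control 2, and the fatty acid median was -0.11 without control 1. Here too the fits without control 1 set a second-set control against arrays of both sets. Within the second set alone the medians were -0.18 and -0.41. Proximal tubule markers were lower than control for 6 of 10 by set mean in both sets, with a median of -0.21 (first set) and -0.39 (second set). With their mean as a covariate the enzyme medians were -0.30 and -0.42. With the mean of the Y-linked genes as a covariate they were -0.49 and -0.70. Both covariates carry the limits given for the first comparison. With the replicate number as a block, which mixes the array sets, the enzyme medians were -0.14 and -0.11. Podocyte markers were lower for 8 of 8 over all arrays (median -0.40, but 0.06 and -0.71 within the sets). Mesangial markers were higher for 4 of 5 in both sets (median 0.35 and 0.55) and macrophage markers for 4 of 7 (median 0.03 and 0.92). The part of these cells in the enzymes' values was not tested.

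Beyond the list, 43 of 47 further genes of the same pathways were measured: SREBP cleavage and Insig turnover, the isoprenoid branch, lipogenic supply with glycerolipids, and cholesterol handling with LXR partners. None passed limma's test in any comparison, in either direction. For Tln1 vehicle against control, 8 of 43 were lower within both sets without overlap, beside 16.3% of all genes, and 3 were higher, beside 14.2%. The share that was lower is near that of all genes. The median change was 0.02, as for all genes. For Tln1 VPA against Tln1 vehicle 4 were lower and 1 was higher, beside 6.7% and 8.31% of all genes, with a median of -0.03. For Tln1 VPA against control 13 were lower and 6 higher, beside 16.1% and 15.4% of all genes, with a median of -0.02. There the share that was lower was above that of all genes, while the share that was higher was near it.

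The genes named from these lists have the 2 smallest p in a comparison. Abcg8, a subunit of a sterol export pump, stood at 3.47 and 3.46 in the controls, at 3.79, 3.67 and 3.94 with vehicle and at 3.65, 3.60 and 3.76 with valproic acid, all low values. Lrp1, a lipoprotein receptor, stood at 5.86 and 5.83 in the controls, at 6.08, 5.98 and 6.16 with vehicle and at 5.98, 5.98 and 6.16 with valproic acid. For both, all Tln1 arrays were above both controls, at changes of 0.34 (SE 0.13) and 0.23 (SE 0.12) for Tln1 vehicle, with limma adjusted p = 1.00. Lpin1, a phosphatidate phosphatase of glycerolipid synthesis, stood at 8.54 and 9.09 in the controls, at 8.78, 8.85 and 8.09 with vehicle and at 8.07, 8.44 and 8.12 with valproic acid. It was below control in every Tln1 VPA array, at a change of -0.61 (SE 0.27, limma adjusted p = 1.00). Erlin1, which helps degrade Insig1, was at 6.98, 7.60 and 7.52 in Tln1 vehicle against 6.98, 6.97 and 6.81 in Tln1 VPA, at a change of -0.45 (SE 0.24, limma adjusted p = 1.00).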

How the data were processed

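The authors deposited log2 expression, summarised with RMA per the submitters' processing notes (limma is named there too). Software versions and the genome build were not given in the sources used here. In all, 0 value columns were left out. The values run from 1.49 to 13.9. Of 41345 probe sets, 23521 had 1 gene symbol, 1814 several and 16010 none in the platform annotation. The probe set with the highest mean was kept for each gene, which left 22180 genes, of which 21994 matched the gene table by Entrez ID. Of the 32 genes described, Scap alone had a further probe set of its own, with a lower mean.

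All comparisons came from 1 two-sided limma fit (version 3.58.1, R 4.3.3) over 8 arrays, by lmFit and eBayes with a term for group alone. A gene was called at a Benjamini-Hochberg adjusted p below 0.05 over all genes. Array sets were found by clustering and then used as a block. The number of arrays limits the precision. The code was tested on simulated data. Plots used Python 3.11.15 and matplotlib 3.10.9.

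The members, the wider gene lists and the markers were chosen with earlier results of these data known. By the rule for named genes, all members are named, change and p are given for the 6 with the smallest p in each comparison, and 2 genes with the smallest p are named from the wider lists. Vehicle and valproic acid arrays of the same number lay to the same side of their group means (r = 0.570, 0.609 and 0.787 over genes). That counts as a pairing under the rule used, although the labels state no pairing and other pairs of the first set had r of 0.510 and 0.515. Control and Tln1 vehicle numbers were not taken as paired (r = 0.609 and -0.591). The replicate block still grouped the controls by number, so control 2 fell in a block with first-set Tln1 arrays. Alternatives were another probe set rule, a filter on dim genes, quantile normalisation, centring, only the groups compared, trended and robust eBayes, the set or the replicate number as a block, each set alone, 2 covariates and each array left out.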

Additional observations from a re-analysis of the deposited data

How the results depend on the processing

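None of the lipid genes was called under any alternative, and with few arrays a p that misses the threshold does not show that levels did not differ. For counts of genes called, 45 values were within 1.5 times the main count and 4 were not. With the replicate number as a block 4 genes were called for Tln1 vehicle against control, 0 for Tln1 VPA against Tln1 vehicle and 1 for Tln1 VPA against control. In the last comparison 1 gene was called with the proximal tubule covariate and 21 with the Y-linked covariate. The replicate block, which put control 2 with first-set Tln1 arrays, changed no other call. It took the medians of the sterol and fatty acid enzymes to -0.089 and -0.064 for Tln1 vehicle and to -0.14 and -0.11 for Tln1 VPA against control. Of the values for list medians, 96 moved by less than the spread between arrays. The other 8 moved further. Among them was -0.67 for fatty acid enzymes in the second set alone (Tln1 vehicle against control). With the Y-linked covariate, which is tied to set and group, -0.52 (sterol) and -0.77 (fatty acid) in that comparison were too. The rest came from leaving out 1 array. For Tln1 vehicle they were 0.014 and -0.54 (sterol) without control 1 and control 2, and 0.022 (fatty acid) without Tln1 vehicle 3. For Tln1 VPA against control they were -0.026 and -0.60 (sterol) without control 1 and control 2. Leaving out each array in turn, the sterol median ranged from -0.54 to 0.014 for Tln1 vehicle and from -0.60 to -0.026 for Tln1 VPA against control, and the fatty acid median from -0.49 to 0.022 for Tln1 vehicle. Of the values for single genes, 3 reversed, and Abca1 had a difference of 0 for Tln1 VPA against Tln1 vehicle in the second set alone. The reversed values were Scd1 for Tln1 VPA against Tln1 vehicle in the second set alone (-0.76), and, without control 1, Insig1 (0.088, range -1.11 to 0.088) and Ebp (0.039, range -0.71 to 0.039) for Tln1 vehicle against control. Without control 1 the only control is from the second set, while Insig1 and Ebp were 0.90 and 0.67 higher in the first set. Within the second set alone they were at -0.63 and -0.56 for Tln1 vehicle against control. For Scd1 the cause was not tested. Insig1, Srebf1 and Ebp were added to the genes followed after seeing the data. Values from the second set alone rest on 1 array per group and have no test.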
